A study of Mus musculus with 33 samples.

Results

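The genes described here are 9 components of the FGF-ERK pathway in mouse embryonic stem cells (ESCs): the ligand Fgf4, the receptors Fgfr1 and Fgfr2, the feedback inhibitors Dusp6, Spry2, Spry4 and Spred1, and the ETS transcription factors Etv4 and Etv5. They were chosen by gene symbol, and each matched 1 of the 55487 genes in the deposited RNA-seq tables. Their levels were followed in 33 libraries, 3 in each of 11 conditions, to ask how loss of heterochromatin protein 1 (HP1), the reader of H3K9 methylation, and of SETDB1, an enzyme that writes it, is accompanied by changes in this pathway. All cells are C57BL/6 ESCs grown on feeder cells (mouse embryonic fibroblasts) in serum and LIF. Feeder cells were reduced by letting them settle on gelatin and collecting the cells that stayed afloat. The Hp1αΔ/Δ, Hp1βΔ/Δ and Hp1γΔ/Δ single mutants and the Hp1α/βΔ/Δ, Hp1α/γΔ/Δ and Hp1β/γΔ/Δ double mutants are constitutive knockouts made with CRISPR/Cas9 (HP1α, β and γ are encoded by Cbx5, Cbx1 and Cbx3). The Hp1α/β/γΔ/Δ cells came from Hp1α/βΔ/Δ ESCs with a floxed Hp1γ after transfection of Cre, and the Setdb1Δ/Δ cells came from floxed Setdb1F/F ESCs. The study set the triple mutant against cells of its own floxed line that received a control vector, which are not analysed here. Wild-type set A and Hp1α/βΔ/Δ ESCs stand as its controls instead, so that loss of Hp1γ, the Cre transfection and the cell line cannot be told apart in its values. The labels hold 2 wild-type sets, called set A and set B here after the tables in which they stand. Set A stands beside the single mutants, Hp1α/βΔ/Δ ESCs and Hp1α/β/γΔ/Δ cells, and set B beside Hp1α/γΔ/Δ and Hp1β/γΔ/Δ ESCs. The study's methods name 3 biological replicates but not the clone or culture of each library, so p-values measure the spread between these libraries.

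FGF ligands bind receptor tyrosine kinases on the cell surface together with heparan sulfate, and the receptors pass the signal through adaptors and RAS to the kinases MEK and ERK. ERK raises the transcription of Etv4, Etv5, Dusp6, Sprouty (Spry) and Spred genes, and the products of the last 3 families damp the pathway again, so that their mRNAs are commonly read as a measure of its output. In ESCs, FGF4 is the main autocrine ligand, its gene is a target of OCT4 and SOX2, and FGF-ERK signalling is known for readying these cells to leave the pluripotent state. FGFR1 is the main receptor of ESCs, while FGFR2 is better known from primitive endoderm and trophoblast.

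Total counts per library ran from 17330936 to 25743149, and levels are given as CPM, counts relative to library size, after scaling of the 33 libraries together by edgeR's TMM method. In the mutants the targeted genes were lower in every library than in the wild-type or Setdb1F/F controls. Cbx5 had 177 to 181 CPM in Hp1αΔ/Δ ESCs beside 479 to 490 CPM in set A. Cbx1 had 99.7 to 111 CPM in Hp1βΔ/Δ ESCs beside 430 to 448 CPM in set A. Cbx3 had 59.2 to 63.9 CPM in Hp1α/β/γΔ/Δ cells and 167 to 203 CPM in Hp1α/βΔ/Δ ESCs. Between these, Cbx5, targeted in both, was higher in Hp1α/β/γΔ/Δ cells (267 to 276 CPM) than in Hp1α/βΔ/Δ ESCs (199 to 208 CPM). Setdb1 had 67.7 to 71.6 CPM in Setdb1Δ/Δ cells and 131 to 136 CPM in Setdb1F/F ESCs. All 8 ESC markers of a list were above 1 CPM in every condition, with a summed level of 1211 to 1236 CPM in Hp1α/β/γΔ/Δ cells. It was 2547 to 2596 CPM in set A, while Setdb1F/F ESCs had 5936 to 5947 CPM. The second library of Hp1α/γΔ/Δ ESCs stood apart from the other 2, and the biological coefficient of variation of that comparison was 0.184 against 0.029 to 0.0681 in the other 9. The changes of Hp1α/γΔ/Δ ESCs are therefore given with and without it. A set of 12 feeder fibroblast markers summed to 25.2 to 28.3 CPM in Hp1α/γΔ/Δ ESCs, 27.7 to 31.0 CPM in the 2 Setdb1 conditions, 36.3 to 38.9 CPM in Hp1α/β/γΔ/Δ cells and 56.5 to 99.0 CPM elsewhere. Since these are bulk libraries, fewer cells of a type and less RNA per cell cannot be told apart.

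Between genes, levels were compared as TPM, the authors' value corrected for transcript length. In wild-type set A, Etv5 was highest at 141 ± 3.85 TPM (SD, n = 3), followed by Fgf4 at 128 ± 0.636 TPM (SD, n = 3). Fgfr1 (38.4 ± 2.1 TPM; SD, n = 3), Dusp6 (37.2 ± 0.146 TPM; SD, n = 3) and Spry2 (35.8 ± 2.44 TPM; SD, n = 3) followed, and their ranges over libraries overlapped. Spry4 (30.7 ± 0.234 TPM), Etv4 (28.8 ± 1.17 TPM) and Spred1 (24.7 ± 0.212 TPM; SD, n = 3 each) came next. Fgfr2 ran from 14.0 to 41.6 TPM over the 3 libraries of set A, while its counts in the same libraries ran only from 26.1 to 28.7 CPM, so its place in the order is not fixed by these values. In Setdb1F/F ESCs the order was another, with Spry2 at 187 ± 4.83 TPM and Etv4 at 146 ± 3.71 TPM (SD, n = 3 each) above Etv5 at 108 ± 1.22 TPM (SD, n = 3).

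**Figure D1:**
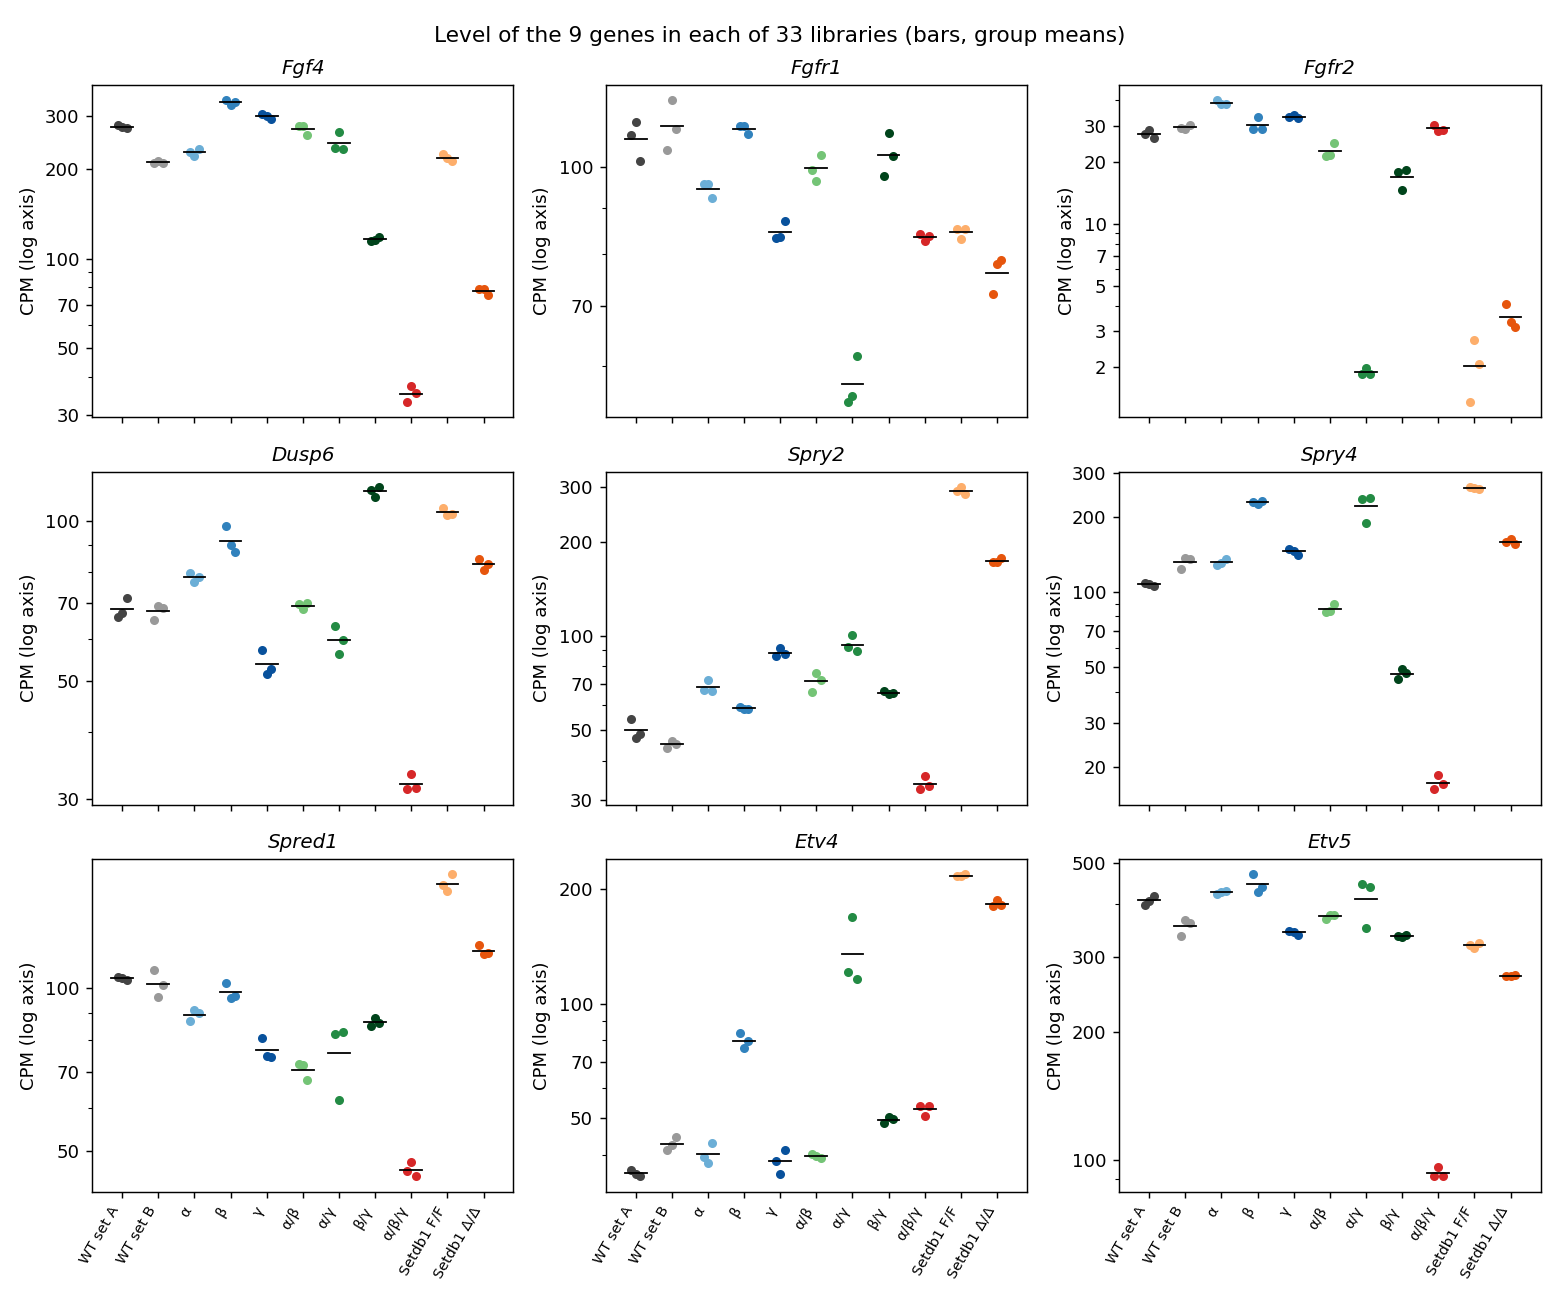
Level of each gene in CPM (vertical, log axis with its own range in each panel) in the 33 libraries, by condition (horizontal). Points are libraries and bars are means of 3 libraries; Fgf4, Spry4 and Etv5 have their lowest points in Hp1α/β/γΔ/Δ cells, and Fgfr2 has its lowest in Hp1α/γΔ/Δ and Setdb1F/F ESCs.

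Fgf4 (ENSMUSG00000050917, chr7:144847367-144865243 of GRCm38) was the only member that differed by more than 1 in log2 from the controls in both conditional mutants. Its 3 libraries had 279, 277 and 274 CPM in set A, 277, 277 and 259.9 CPM in Hp1α/βΔ/Δ ESCs, and 32.99, 37.3 and 35.6 CPM in Hp1α/β/γΔ/Δ cells. They had 225, 217 and 212 CPM in Setdb1F/F ESCs and 78.9, 79.1 and 75.8 CPM in Setdb1Δ/Δ cells. Both conditional mutants thus lay below every other library. Hp1β/γΔ/Δ ESCs, which had 114, 116 and 118 CPM, stood between them and the rest. The highest level was that of Hp1βΔ/Δ ESCs, at 334 ± 6.77 CPM (SD, n = 3), and the means spanned 9.46-fold. The ranges of 5 neighbouring pairs in the order of the 11 conditions overlapped, all of them among set A, Hp1α/βΔ/Δ, Hp1α/γΔ/Δ, Hp1αΔ/Δ and Setdb1F/F ESCs and set B. The wild-type sets themselves were apart, with 277 ± 2.32 CPM in set A and 210.3 ± 2.29 CPM in set B (SD, n = 3 each).

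Fgfr1 (ENSMUSG00000031565, chr8:25513654-25575718) varied least of the 9 genes, by 1.94-fold between the highest and lowest mean. Its libraries had 108, 112 and 102 CPM in set A, 104, 119 and 110.2 CPM in set B, and 54.6, 55.4 and 61.5 CPM in Hp1α/γΔ/Δ ESCs, the lowest condition. The other 8 conditions lay between 72.1 and 111 CPM, and 6 of the 10 neighbouring pairs in the order overlapped. An annotated antisense transcript, Gm16159, shares sequence with its exons, and its estimated counts were not whole numbers in 20 of 33 libraries.

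Fgfr2 (ENSMUSG00000030849, chr7:130162451-133123350) varied most, by 20.4-fold between means. It had 27.5, 28.7 and 26.1 CPM in set A, 29.4, 29.1 and 30.4 CPM in set B, and 30.5, 28.3 and 28.9 CPM in Hp1α/β/γΔ/Δ cells, so that these 3 conditions were close to each other. It was far lower in 3 other conditions, with 1.86, 1.98 and 1.87 CPM in Hp1α/γΔ/Δ ESCs, 1.35, 2.71 and 2.07 CPM in Setdb1F/F ESCs, and 4.07, 3.32 and 3.16 CPM in Setdb1Δ/Δ cells. Hp1β/γΔ/Δ ESCs, with 17.8, 14.6 and 18.3 CPM, were the next lowest, and Hp1αΔ/Δ ESCs were highest at 38.9 ± 1.13 CPM (SD, n = 3). The annotated Fgfr2 gene overlaps 69 other genes, of which Ctbp2 shares exon sequence on the same strand, and the estimated counts of Fgfr2 were not whole in any of the 33 libraries. Its values are therefore uncertain to the extent that reads were split between genes.

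**Figure D2:**
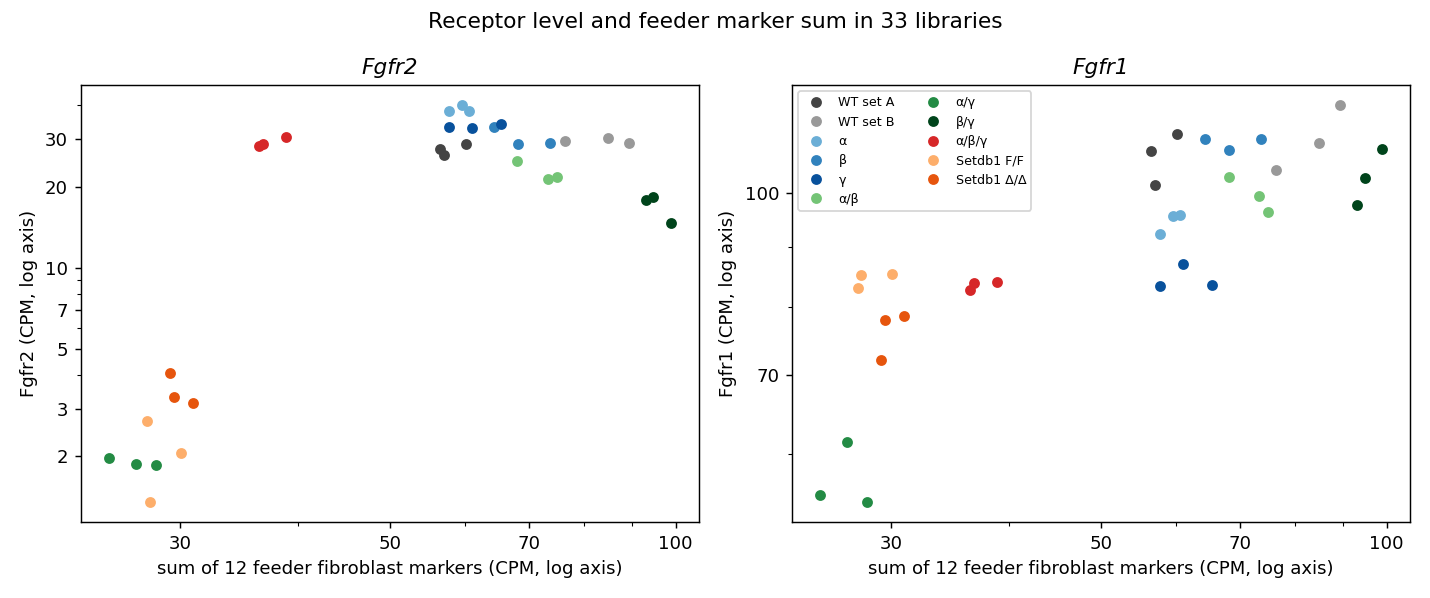
Level of Fgfr2 (left) and Fgfr1 (right) in CPM (vertical, log axis) against the summed level of 12 feeder fibroblast markers in CPM (horizontal, log axis), 1 point for each of 33 libraries. Hp1α/γΔ/Δ and both Setdb1 conditions lie at low Fgfr2 and 25.2 to 31.0 CPM of markers, while Hp1α/β/γΔ/Δ cells keep 28.3 to 30.5 CPM of Fgfr2 at 36.3 to 38.9 CPM of markers.

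Among the feedback inhibitors, Dusp6 (ENSMUSG00000019960, chr10:99263231-99267489), a phosphatase of ERK, had 66.0, 67.1 and 71.6 CPM in set A, 69.7, 68.2 and 70.0 CPM in Hp1α/βΔ/Δ ESCs and 31.2, 33.4 and 31.5 CPM in Hp1α/β/γΔ/Δ cells. The Hp1α/β/γΔ/Δ libraries were the lowest of all, and the highest were those of Hp1β/γΔ/Δ ESCs with 115, 111 and 116 CPM. Spry2 (ENSMUSG00000022114, chr14:105891947-105896819), an inhibitor that acts downstream of the receptor, had 54.2, 47.3 and 48.6 CPM in set A, 66.4, 75.9 and 72.4 CPM in Hp1α/βΔ/Δ ESCs and 32.3, 35.7 and 33.1 CPM in Hp1α/β/γΔ/Δ cells. It was higher in both Setdb1 conditions than in any other, with 291, 299 and 285 CPM in Setdb1F/F ESCs and 173, 172 and 177 CPM in Setdb1Δ/Δ cells. Spred1 (ENSMUSG00000027351, chr2:117121374-117182279), which recruits the RAS inhibitor neurofibromin, had 104 ± 0.553 CPM in set A, 70.6 ± 2.72 CPM in Hp1α/βΔ/Δ ESCs and 46.1 ± 1.41 CPM in Hp1α/β/γΔ/Δ cells (SD, n = 3 each), with no overlap between these 3 conditions.

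Spry4 (ENSMUSG00000024427, chr18:38586247-38601415), a relative of Spry2, had the widest span of the inhibitors, 15.1-fold between means. Its libraries had 109, 108 and 106 CPM in set A, 124, 137 and 135 CPM in set B, 230.4, 225 and 232 CPM in Hp1βΔ/Δ ESCs and 83.3, 83.9 and 89.9 CPM in Hp1α/βΔ/Δ ESCs. They had 44.9, 49.1 and 47.6 CPM in Hp1β/γΔ/Δ ESCs and 16.2, 18.5 and 17.1 CPM in Hp1α/β/γΔ/Δ cells. Spry4 was thus above both wild-type sets in Hp1βΔ/Δ ESCs and below both in the 3 mutants that lack Hp1β together with another Hp1 gene. In the order of the 11 conditions only 2 neighbouring pairs overlapped, Hp1βΔ/Δ with Hp1α/γΔ/Δ ESCs and set B with Hp1αΔ/Δ ESCs.

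Etv5 (ENSMUSG00000013089, chr16:22381309-22439719) had 398, 406 and 417 CPM in set A, 369, 375 and 376 CPM in Hp1α/βΔ/Δ ESCs and 91.4, 96.0 and 91.3 CPM in Hp1α/β/γΔ/Δ cells. No library of another condition lay under 270.2 CPM. Etv4 (ENSMUSG00000017724, chr11:101769742-101785371), its paralog, followed another order: 36.5, 35.6 and 35.05 CPM in set A, 53.8, 50.7 and 53.8 CPM in Hp1α/β/γΔ/Δ cells, 83.7, 76.4 and 79.5 CPM in Hp1βΔ/Δ ESCs, 121, 169 and 116 CPM in Hp1α/γΔ/Δ ESCs, and 216, 216 and 219 CPM in Setdb1F/F ESCs. The Etv4 ranges of the 5 lowest conditions (both wild-type sets and the Hp1αΔ/Δ, Hp1γΔ/Δ and Hp1α/βΔ/Δ ESCs) overlapped from neighbour to neighbour. The counts of Etv5 were not whole in 11 of 33 libraries, and those of Etv4, Fgf4, Dusp6 and the Spry and Spred genes were whole in all.

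The first comparison asked what changes when all Hp1 genes are lost. Fgf4, Spry4, Etv5, Spred1 and Dusp6 were lower in Hp1α/β/γΔ/Δ cells than in set A, by log2 fold changes of −2.94, −2.60, −2.1, −1.14 and −1.06. A gene was called when its adjusted p was under 0.05 and its level differed by more than 1 in log2, and by that rule 5 of the 9 genes fell and none rose. Of the 17501 genes tested, 42.3% were called, 17.1% as lower and 25.1% as higher. The median log2 fold change was −1.06 over the 9 genes and 0.035 over all genes tested. For Fgf4 the standard error was 0.04 and the adjusted p was 1.31e-21 (quasi-likelihood test of edgeR, adjusted by Benjamini and Hochberg). For Spry4 the adjusted p was 9.67e-19 and for Etv5 it was 4.14e-21 by the same test. Etv4 was higher by 0.60 (standard error 0.05, adjusted p = 4.06e-09 by edgeR), which stayed under the fold threshold. Spry2 (−0.54) and Fgfr1 (−0.33) also passed the adjusted p alone, as did 81.6% of all genes, whereas Fgfr2 (0.13, adjusted p = 0.0793 by edgeR) did not. Libraries of the 2 conditions did not overlap for 8 of the 9 genes, Fgfr2 being the exception. The share of all genes without overlap was not counted, so this describes the members only.

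The scale matters for the smaller of these differences. With library sizes alone and no TMM factor, the median log2 fold change of all genes moved from 0.035 to 0.283, and 3 genes, Fgf4, Spry4 and Etv5, were still called. When every library had to hold at least 10 counts of a gene, Dusp6 (−0.96) was no longer called and the other 4 were. The authors' TPM moved that median to 0.403, and on that scale Fgfr1 was higher in Hp1α/β/γΔ/Δ cells, at 46.6 ± 0.779 TPM against 38.4 ± 2.1 TPM in set A (SD, n = 3 each). Relative to that median, Fgfr1 was 0.124 lower in log2, and Fgf4 (−3.01), Spry4 (−2.67), Etv5 (−2.15), Spred1 (−1.18) and Dusp6 (−1.14) kept their sizes. Genes on chromosome 8, where Fgfr1 lies, had a median log2 fold change of 0.518 in this comparison against 0.00299 elsewhere. Those on chromosome 16, where Etv5 lies, had −0.299, and those on chromosome 14, where Spry2 lies, had 0.203. The chromosome 16 median was also low in the α, β, γ and α/β mutants against set A (−0.505, −0.306, −0.512 and −0.423). In the α/γ and β/γ mutants against set B it was −0.43 and −0.442. It was 0.116 in Hp1α/β/γΔ/Δ cells against Hp1α/βΔ/Δ ESCs and −0.0618 in set B against set A. In Setdb1Δ/Δ cells chromosome 14 had 0.315. The part of these shifts in the values of Fgfr1, Etv5 and Spry2 was not tested.

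**Figure D3:**
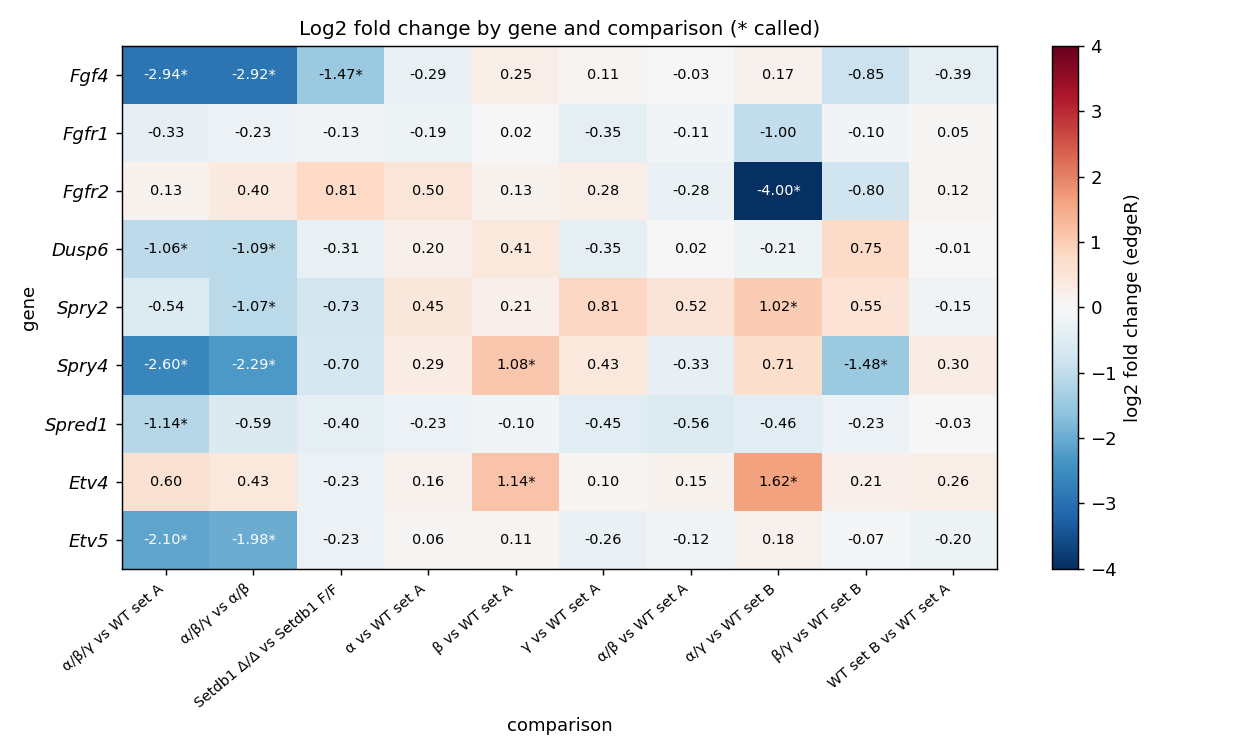
Log2 fold change (colour and printed value) of each gene (rows) in each comparison (columns), from edgeR with 3 libraries in each condition, with * for a call. The first 2 columns hold 5 starred falls each, among them Fgf4 at −2.94 and −2.92.

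Against Hp1α/βΔ/Δ ESCs, the genotype from which the triple mutant was made, Fgf4, Spry4 and Etv5 fell by 2.92, 2.29 and 1.98 on the log2 scale. Dusp6 (−1.09) and Spry2 (−1.07) were also called, so that 5 of 9 genes fell and none rose, beside 41.4% of 17425 genes called and 16.0% called lower. Spred1, called against set A, had a log2 fold change of −0.59 here. Its level in Hp1α/βΔ/Δ ESCs was already below set A. All 9 genes passed the adjusted p alone, as did 80.6% of all genes, and Fgfr2 (0.40, standard error 0.08) and Etv4 (0.43, standard error 0.05) were the 2 with a higher level in Hp1α/β/γΔ/Δ cells. The direction of Fgfr1 (−0.23) turned to 0.05 with library sizes alone. Dusp6 and Spry2 were not called in that setting or when every library had to hold at least 10 counts of a gene, which left 3 calls in each.

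Sequence upstream of the called genes is given here for the members that fell together. RefSeq promoters (GRCm38.p6, 250 bases before and 50 after the start site) were found for Dusp6, Etv5, Fgf4, Fgfr2, Spred1 and Spry2, 6 of the 9 genes, with 2 for Etv5. They were searched on both strands for letters bound by ETS factors such as Etv4 and Etv5 (CCGGAAGT) and for letters bound by capicua, a repressor that ERK inactivates (TGAATGAA and TGAATGGA, and, chosen after the sequences were seen, TCAATGAA and TCAATGGA). Matches are in capitals, and all 3 of them lie on the strand opposite to the one printed. They are shown because Dusp6 and Spry2 fell together against Hp1α/βΔ/Δ ESCs, and Fgf4 fell most. The distal of the 2 Etv5 promoters, which holds no match, is shown beside them because Etv5 fell more than Dusp6 and Spry2.
Dusp6, chr10:99262981-99263280, plus strand: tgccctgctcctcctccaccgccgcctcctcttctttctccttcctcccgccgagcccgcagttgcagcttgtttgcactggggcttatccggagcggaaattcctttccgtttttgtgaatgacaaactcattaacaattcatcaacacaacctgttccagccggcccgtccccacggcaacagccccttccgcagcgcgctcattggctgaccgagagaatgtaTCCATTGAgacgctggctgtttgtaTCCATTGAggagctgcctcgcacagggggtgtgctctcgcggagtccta
Spry2, chr14:105896770-105897069, minus strand: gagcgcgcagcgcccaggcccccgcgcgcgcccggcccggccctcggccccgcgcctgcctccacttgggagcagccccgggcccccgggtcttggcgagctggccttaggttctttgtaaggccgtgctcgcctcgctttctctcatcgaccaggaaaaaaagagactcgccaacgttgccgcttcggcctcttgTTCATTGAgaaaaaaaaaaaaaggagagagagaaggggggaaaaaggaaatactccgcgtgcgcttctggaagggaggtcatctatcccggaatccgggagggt
Fgf4, chr7:144861136-144861435, plus strand: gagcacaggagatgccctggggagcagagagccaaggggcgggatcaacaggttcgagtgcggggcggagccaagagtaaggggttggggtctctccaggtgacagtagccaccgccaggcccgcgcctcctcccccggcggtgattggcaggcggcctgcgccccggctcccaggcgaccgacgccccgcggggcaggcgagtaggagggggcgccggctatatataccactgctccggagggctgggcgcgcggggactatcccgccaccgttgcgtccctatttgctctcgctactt
Etv5, chr16:22439521-22439820, minus strand: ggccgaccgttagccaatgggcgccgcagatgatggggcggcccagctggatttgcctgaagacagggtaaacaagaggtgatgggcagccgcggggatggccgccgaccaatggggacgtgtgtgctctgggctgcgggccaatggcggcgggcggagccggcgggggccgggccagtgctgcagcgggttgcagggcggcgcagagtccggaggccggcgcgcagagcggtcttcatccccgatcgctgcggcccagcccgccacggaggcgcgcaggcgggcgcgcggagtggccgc
The Dusp6 promoter holds TCCATTGA at bases 227 to 234 and again at bases 252 to 259, the reverse complement of TCAATGGA, which 0.67% of 32851 promoters contain. The Spry2 promoter holds TTCATTGA at bases 197 to 204, the reverse complement of TCAATGAA, found in 0.749% of promoters. CCGGAAGT, TGAATGAA and TGAATGGA, found in 3.89%, 1.3% and 1.21% of promoters, are in none of the 7 promoters found for 6 of the genes. Any of the 4 capicua letter sets is in 3.84% of all promoters and in 2 of these 7. Those 2 hold only letters chosen after the sequences were seen, so their number cannot be weighed against the 3.84%. A match is a description of letters and not evidence of binding.

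Loss of Setdb1 was compared with its floxed parent to ask whether losing a writer of H3K9 methylation moves the same genes. Fgf4 fell from 218 ± 6.51 to 77.9 ± 1.88 CPM (SD, n = 3 each), which is −1.47 in log2 (standard error 0.03, adjusted p = 3.76e-17 by edgeR). It was the only one of the 9 genes called, in a comparison in which 29.9% of 16457 genes were called and 11.4% were called lower. Spry2 (−0.73), Spry4 (−0.70), Spred1 (−0.40), Dusp6 (−0.31), Etv4 (−0.23), Etv5 (−0.23) and Fgfr1 (−0.13) were lower and Fgfr2 (0.81, standard error 0.23) was higher, all 9 at an adjusted p under 0.05, as were 78.9% of all genes. These smaller values hung on the scale: with library sizes alone the median of all genes moved from 0.0149 to 0.282, and Etv5, Etv4 and Fgfr1 turned to 0.04, 0.04 and 0.13. On the authors' TPM, where that median was 0.4999, Dusp6, Spred1, Etv4, Etv5 and Fgfr1 were higher in Setdb1Δ/Δ cells, and Fgf4 was lower at 48.9 ± 0.740 against 96.0 ± 3.59 TPM (SD, n = 3 each). Fgfr2 was also called without the second Setdb1F/F library (log2 1.06) or with library sizes alone (log2 1.07), but its level was 1.35 to 4.07 CPM. Feeder markers summed to 27.7 to 30.1 CPM in Setdb1F/F ESCs and 29.3 to 31.0 CPM in Setdb1Δ/Δ cells.

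The difference between both responses was tested in 1 model with no shared control. Etv5, Spry4 and Fgf4 fell more in Hp1α/β/γΔ/Δ cells against Hp1α/βΔ/Δ ESCs than in Setdb1Δ/Δ cells against Setdb1F/F ESCs, by 1.79, 1.62 and 1.48 in log2 (standard errors 0.04, 0.06 and 0.06, adjusted p = 8.91e-19, 3.73e-15 and 1.44e-14 by edgeR). The differences of Dusp6 (−0.81), Spry2 (−0.37) and Spred1 (−0.23) also passed, as did that of Etv4 with the opposite sign (0.64, standard error 0.05). In all 7 of 9 genes passed, 6 with a negative and 1 with a positive sign. Of all 18532 genes 64.2% passed, 6155 genes with a negative and 5750 with a positive sign. Fgfr1 (−0.13, adjusted p = 0.0577) and Fgfr2 (−0.44, adjusted p = 0.0793) did not pass by the same edgeR test. In Setdb1Δ/Δ cells Etv5 kept 271 ± 0.717 CPM of 319.9 ± 4.48 CPM, while in Hp1α/β/γΔ/Δ cells it kept 92.9 ± 2.71 CPM of 373 ± 3.93 CPM (SD, n = 3 each).

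**Figure D4:**
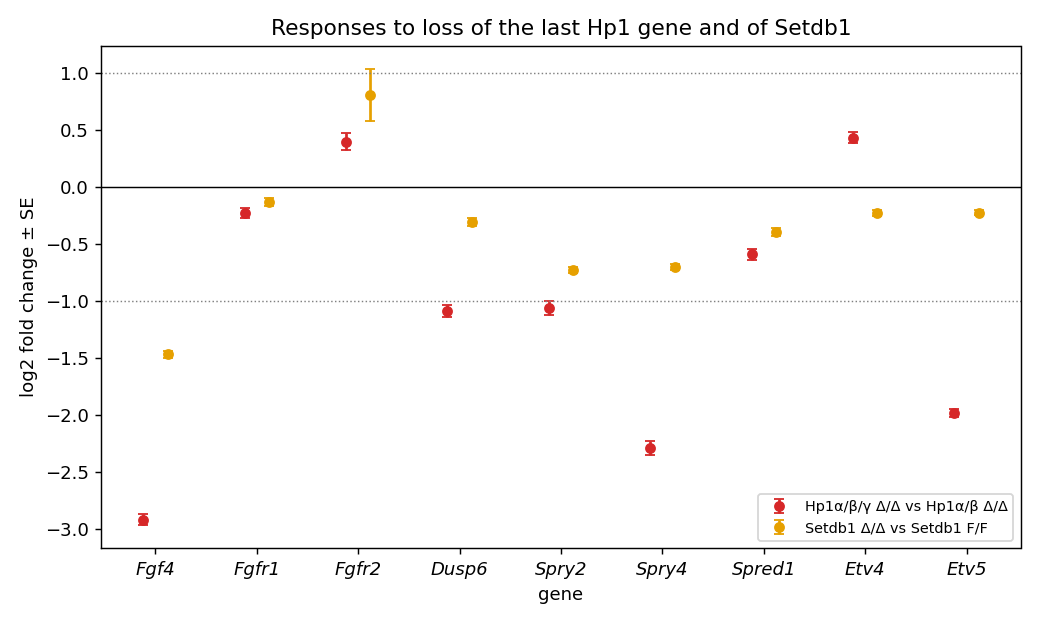
Log2 fold change with its standard error (vertical) of each gene (horizontal) in Hp1α/β/γΔ/Δ cells against Hp1α/βΔ/Δ ESCs and in Setdb1Δ/Δ cells against Setdb1F/F ESCs, 3 libraries in each condition, with dotted lines at −1 and 1. Fgf4 lies below −1 in both, while Spry4 and Etv5 lie near −2 in the first and above −1 in the second.

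In single mutants few of these genes changed. In Hp1βΔ/Δ ESCs Spry4 rose by 1.08 in log2 (standard error 0.04, adjusted p = 1.4e-08 by edgeR) and Etv4 by 1.14 (standard error 0.05, adjusted p = 5.3e-08 by edgeR). They were the 2 of 9 genes called, where 9.10% of 15845 genes were called and 2.75% were called higher. Against set B in place of set A, Spry4 and Etv4 were higher by 0.78 and 0.89, and neither was called. No member was called in Hp1αΔ/Δ or Hp1γΔ/Δ ESCs by edgeR or by DESeq2, although 4.87% of 15841 and 5.59% of 15823 genes were. By edgeR 9 and 8 of the 9 had an unadjusted p under 0.05, and the share of all genes at that p was not counted. At the adjusted p alone, 8 of 9 genes passed in Hp1αΔ/Δ ESCs (45.0% of all genes), 6 in Hp1βΔ/Δ ESCs (51.1%) and 8 in Hp1γΔ/Δ ESCs (46.7%). Spry2 was higher than set A in each single mutant, by 0.45, 0.21 and 0.81 in log2 in the order α, β and γ, and its libraries did not overlap those of set A in any of them. These 3 comparisons share the set A libraries.

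For scale, wild-type set B differed from set A in the same genes by up to 0.39 in log2. Fgf4 was 0.39 lower in set B (standard error 0.04, adjusted p = 1.69e-06 by edgeR), and Spry4 (0.30), Etv4 (0.26) and Etv5 (−0.20) also passed the adjusted p alone, as did 24.8% of all genes. None of the 9 was called by edgeR or DESeq2, beside 5.68% of 16008 genes. An unadjusted p under 0.05 by edgeR was found for 5 of the 9, and the share of all genes at that p was not counted. The direction of Fgf4 and Etv4 in Hp1αΔ/Δ ESCs and that of Etv4 and Etv5 in Hp1α/βΔ/Δ ESCs turned with set B as control. Values that had not passed the adjusted p turned too. These were Fgf4 in Hp1α/βΔ/Δ ESCs (from −0.03 to 0.37, adjusted p = 1.62e-05 by edgeR against set B), Etv4 in Hp1γΔ/Δ ESCs (from 0.10 to −0.14) and Fgfr1 in Hp1βΔ/Δ ESCs (from 0.02 to −0.02).

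In Hp1α/βΔ/Δ ESCs none of the 9 genes was called by edgeR or DESeq2, where 8.15% of 15854 genes were called. At the adjusted p alone 6 passed (43.4% of all genes). An unadjusted p under 0.05 by edgeR was found for 7, and the share of all genes at that p was not counted. Spred1 (−0.56, standard error 0.04) and Spry2 (0.52, standard error 0.06) were the furthest from 0. Hp1αΔ/Δ, Hp1βΔ/Δ, Hp1α/βΔ/Δ ESCs and set A form a design of 2 by 2 genotypes, so that the departure of the joint loss from the sum of the single losses could be tested. The departure was −1.69 for Spry4 (standard error 0.06, adjusted p = 6.18e-13 by edgeR) and −1.14 for Etv4 (standard error 0.08, adjusted p = 2.21e-09 by edgeR), the 2 genes that had risen in Hp1βΔ/Δ ESCs. That rise over set A enters the departure with a minus sign and from the same libraries, so the 2 results are not separate. Spry4 was 229 ± 3.43 CPM with Hp1β lost, 132 ± 3.57 CPM with Hp1α lost and 85.7 ± 3.66 CPM with both lost (SD, n = 3 each), against 107 ± 1.22 CPM in set A. Fgfr2 (−0.90), Dusp6 (−0.58), Etv5 (−0.29) and Spred1 (−0.23) also passed, so that 6 of 9 genes did, all with a negative sign. Of all 16512 genes 45.0% passed, 3564 genes with a negative and 3868 with a positive sign. Fgf4 (0.01), Fgfr1 (0.06) and Spry2 (−0.14) did not.

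Hp1α/γΔ/Δ ESCs were set against set B. Fgfr2 fell by 4.0 on the log2 scale, from 29.6 ± 0.658 to 1.90 ± 0.0679 CPM (SD, n = 3 each; standard error 0.12, adjusted p = 8.52e-06 by edgeR). Etv4 rose by 1.62 (standard error 0.15, adjusted p = 0.00021 by edgeR) and Spry2 by 1.02 (standard error 0.10, adjusted p = 0.000258 by edgeR). These were the 3 of 9 genes called, 1 lower and 2 higher, where 23.1% of 15841 genes were called, 16.3% lower and 6.75% higher. At the adjusted p alone 6 passed (46.5% of all genes). Without the second Hp1α/γΔ/Δ library the log2 fold changes of Fgfr2, Etv4 and Spry2 were −3.99, 1.47 and 1.004, the same 3 were called, and 8 passed the adjusted p alone. In that setting Fgfr1 had −0.94, Spry4 0.84, Spred1 −0.31, Etv5 0.31, Fgf4 0.15 and Dusp6 −0.14. Spry4 was higher by 0.71 against set B with all libraries (standard error 0.14, adjusted p = 0.00568 by edgeR), and by 1.02 and called against set A. Fgf4 (0.17, adjusted p = 0.172 by edgeR) turned to −0.22 against set A. Spry2 was not called without library 1 of set B (0.9956), against set A (0.87), with library sizes alone (0.84) or when every library had to hold at least 10 counts of a gene (0.986). Fgfr1 (−0.9987) lay at the threshold and was called without library 3 of Hp1α/γΔ/Δ ESCs (−1.06) or without library 1 or 3 of set B (−1.05 and −1.01). Markers of feeder cells moved with both receptors: 9 of 10 tested were called lower, their sum was 25.2 to 28.3 CPM against 76.5 to 89.2 CPM in set B, 5 of 12 were at 1 CPM or more, and Postn was at 0 in all 3 libraries. Of the other markers, 5 of 8 tested for trophoblast were called lower, with a sum of 86.5 to 112 CPM against 245 to 261 CPM in set B, and 1 of 7 for primitive endoderm was called higher and 3 lower. Trophoblast sums were low in both Setdb1 conditions too, at 69.0 to 114 CPM. Of the 8 ESC markers 4 were called higher, with a sum of 3576 to 4593 CPM against 2311 to 2456 CPM. These marker counts did not change without the second Hp1α/γΔ/Δ library. The part of feeder or other cells' RNA in the fall of Fgfr2 was not tested. Hp1α/β/γΔ/Δ cells had 5 of 10 tested feeder markers called lower and 1 higher against set A, with Fgfr2 at 29.2 ± 1.13 CPM (SD, n = 3). In the same comparison 5 of 8 tested primitive endoderm markers were called higher and 2 lower, and 6 of 10 trophoblast markers higher and 1 lower.

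In Hp1β/γΔ/Δ ESCs Spry4 fell by 1.48 on the log2 scale against set B (standard error 0.06, adjusted p = 1.02e-11 by edgeR), from 132 ± 7.02 to 47.2 ± 2.14 CPM (SD, n = 3 each). It was the only member called, where 11.9% of 16263 genes were called, 4.54% lower and 7.32% higher. Fgf4 (−0.85, standard error 0.04) and Fgfr2 (−0.80, standard error 0.08) were lower and Dusp6 (0.75, standard error 0.05) was higher, with 7 of 9 genes at an adjusted p under 0.05 (51.7% of all genes). Against set A, Fgf4 was called too, with a log2 fold change of −1.25. Spry4 and Dusp6, both feedback inhibitors, thus differed from set B in opposite directions, and their libraries did not overlap those of set B.

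The 9 genes did not keep a common order over the 11 conditions. The Pearson correlation of the mean log2(CPM + 1) over the 11 conditions was 0.895 for Fgf4 with Etv5, 0.793 for Spry2 with Etv4, 0.782 for Dusp6 with Spred1 and 0.761 for Spry4 with Etv5. It was −0.908 for Fgfr2 with Etv4 and −0.0416 for the paralogs Etv4 and Etv5. These are descriptions over 11 points that share cell lines and controls. Among 10729 other genes with at least 5 CPM on average, the 2 most like each member were Maz and Rcc2 for Fgf4 (r = 0.98 each), Itpkb and Pcyox1 for Fgfr1 (0.96 and 0.93), Ttbk1 and Bptf for Fgfr2 (0.97 and 0.96), Maea and Inf2 for Dusp6 (0.93 and 0.92), Mff and Dync1li2 for Spry2 (0.98 each), Uba2 and Dck for Spry4 (0.97 and 0.95), Sp1 and Akt2 for Spred1 (0.93 each), Ccs and Adat2 for Etv4 (0.96 and 0.95), and Ubp1 and Pip5k1c for Etv5 (0.98 each).

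The rest of the pathway was followed in a list of 64 genes: 9 other ligands, 4 other receptors, 10 genes of heparan sulfate, 8 adaptors, 11 genes of the RAS-ERK cascade, 12 other inhibitors and 10 other targets. In Hp1α/β/γΔ/Δ cells against set A, 21 of 63 tested were called lower and 8 higher, beside 17.1% and 25.1% of all genes, and their median log2 fold change was −0.59. By role, 6 of 8 tested ligands and 5 of 10 heparan sulfate genes fell and none of either rose. Of the 4 other receptors 3 rose and 1 fell, with a median log2 fold change of 1.1. Of the 11 cascade genes 3 fell, 3 of the 12 inhibitors fell, and the 10 targets were split between 3 lower and 4 higher. Fgf17, a ligand, fell from 24.6 ± 1.73 to 1.61 ± 0.292 CPM (SD, n = 3 each; log2 −3.91). Fgf10 was 31.2-fold lower by its counts over 3 libraries (5 against 142; exact 95% interval 13.1 to 97.7, which covers counting error only). Ier3, a target of ERK, fell by 2.78 on the log2 scale. Fos and Fosl1, also ERK targets, rose by log2 fold changes of 2.81 and 2.11. Klb, a co-receptor of endocrine FGFs, had 215 counts in the 3 Hp1α/β/γΔ/Δ libraries and 1 count in set A, a ratio of 195 (exact 95% interval 34.7 to 7760). The kinase genes Map2k1 (log2 −1.79) and Mapk3 (log2 −1.75), chosen after their values were seen, fell.

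**Figure D5:**
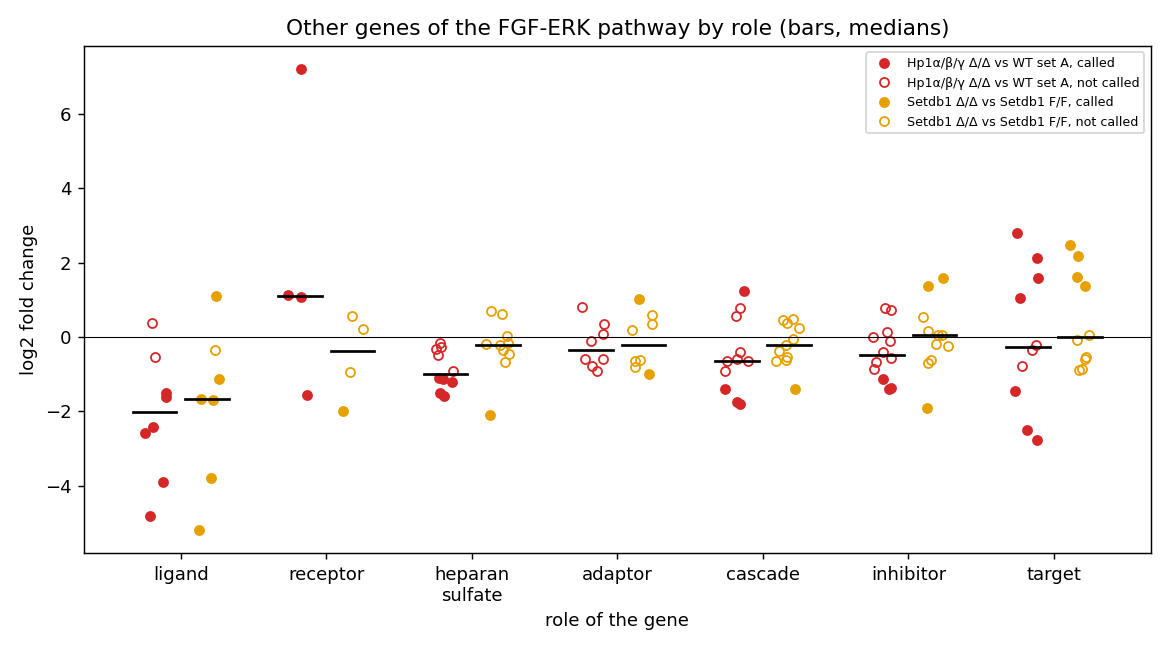
Log2 fold change (vertical) of the 64 other pathway genes by role (horizontal) in Hp1α/β/γΔ/Δ cells against set A and in Setdb1Δ/Δ cells against Setdb1F/F ESCs, 1 point for each gene tested, filled where called, with bars at the medians. Ligands lie lowest in both, with medians of −2.01 and −1.66, and the point above 7 is Klb.

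Against Hp1α/βΔ/Δ ESCs 24 of the 64 genes fell and 5 rose, where 16.0% of all genes were called lower and 25.4% higher, with Fgf10, Fgf8 and Fgf17 as the largest falls (log2 −3.63 for Fgf8 and −3.43 for Fgf17) and Klb, Fos and Fosl1 as the largest rises. In Setdb1Δ/Δ cells 10 of 61 fell and 8 rose, where 11.4% of all genes fell and 18.5% rose. Fgf15 (log2 −3.79) and Gpc4, a heparan sulfate proteoglycan (log2 −2.09), fell, and Fgf10 had 3 counts against 110 (41.7-fold lower, exact 95% interval 13.9 to 206). Egr1 rose from 14.5 ± 2.42 to 79.9 ± 3.07 CPM (SD, n = 3 each; log2 2.48), and Fos (log2 1.63) and the inhibitor Dusp5 (log2 1.60) rose with it. In Hp1α/γΔ/Δ ESCs 10 of 62 fell and 4 rose, close to the 16.3% and 6.75% of all genes. Without the second Hp1α/γΔ/Δ library 8 of 63 fell and 3 rose, beside 16.8% and 6.56% of all genes, and each of the 6 genes named next was still called. Phlda1 (log2 2.41), Fgf10 (1.57) and Egr1 (1.47) led the rises, and Fgf5 (7 counts against 79), Sos2 (−2.09) and Fgfrl1 (−1.45) led the falls. In Hp1β/γΔ/Δ ESCs 3 of 63 fell and 10 rose, beside 4.54% and 7.32% of all genes, led by Fgf8 (log2 2.62), Phlda1 (1.62) and Fgf5 (1.61) and, among the falls, Fgf10 (−1.47), Fgf3 (−1.42) and Fgf17 (−1.04).

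In the remaining comparisons few of the 63 tested pathway genes were called: 4 in Hp1αΔ/Δ, 6 in Hp1βΔ/Δ, 3 in Hp1γΔ/Δ and 5 in Hp1α/βΔ/Δ ESCs and 1 between the wild-type sets, beside 4.87%, 9.10%, 5.59%, 8.15% and 5.68% of all genes. In Hp1αΔ/Δ ESCs 1 rose, Fgf5 (log2 2.06), and 3 fell, among them Fgf10 (−2.13) and Fgf3 (−1.27). In Hp1βΔ/Δ ESCs 3 rose, Fgf18 (1.75), Fosl1 (1.57) and Phlda1 (1.45), and 3 fell, Sos2 (−1.35), Fgf10 (−1.29) and Fgfrl1 (−1.28). In Hp1γΔ/Δ ESCs Egr1 rose (1.08) and Fgf10 (−1.96) and Fgf17 (−1.18) fell. In Hp1α/βΔ/Δ ESCs 3 rose, Fgf8 (2.01), Fgf5 (1.49) and Fgf1 (1.24), and 2 fell, Fgf10 (−1.07) and Fgf2 (−1.01). Ier3 (1.16) was the 1 gene called between the wild-type sets, higher in set B. Other cell types were followed by the summed level of 10 markers each. Those of primitive endoderm ran from 45.6 to 283 CPM over the 33 libraries, with the lowest in Setdb1Δ/Δ cells. In Hp1α/β/γΔ/Δ cells this sum was 82.7 to 89.6 CPM against 216 to 234 CPM in set A. Yet 8 of the 10 were at 1 CPM or more there, against 4 in set A. Against set A 5 of 8 tested were called higher and 2 lower, so the sum and the calls differ. Trophoblast markers summed to 69.0 to 826 CPM, with the highest in Hp1β/γΔ/Δ ESCs. In Hp1α/β/γΔ/Δ cells against set A 6 of 10 were called higher and 1 lower. The part of these cell types in the levels of Fgfr2 and Spry4 was not tested.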

How the data were processed

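RNA-seq was analysed for 33 libraries grouped by their labels. The authors deposited 8 tables with estimated counts (expected_counts) per gene and TPM deposited beside them. The submitters' processing notes name TopHat2 2.1.1, RSEM, edgeR and the build GRCm38.p5. The tables also hold the authors' fold changes, p-values and mean TPM, which were not used. Expected counts were rounded to whole numbers. Positions are from GENCODE M21 (GRCm38).

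Each comparison was fitted over all genes on its own libraries with R 4.3.3, limma 3.58.1 and edgeR 4.0.16: filterByExpr at a minimum count of 10, TMM, glmQLFit and glmQLFTest, with calls where the p adjusted by Benjamini and Hochberg was under 0.05 and the change exceeded 1 in log2. The joint loss of Hp1α and Hp1β and the difference between the triple and Setdb1 mutants were called at an adjusted p under 0.05. All 9 members passed the filter in every comparison. The steps were tested on simulated data.

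The members, the 64 pathway genes and the 4 marker lists were chosen with earlier results of these data known. Named pathway genes were the 3 largest rises and falls among called genes with separated groups and at least 1 CPM. Genes of similar pattern were taken by Pearson correlation among genes with at least 5 CPM, leaving out predicted genes. Alternatives were RLE size factors, DESeq2 1.42.0, other filters, no fold threshold, the replicate number as a block, exchange of the wild-type sets, a joint fit and each library left out. Library sizes alone, ratios of mean TPM and 2 of the 5 promoter motifs were chosen after seeing the data. Totals ran from 17330936 to 25743149 counts per library, and intervals from counts cover counting error only. Promoters are from RefSeq on GRCm38.p6. A result among the cascade genes is not reported here.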

Additional observations from a re-analysis of the deposited data

Results flagged for a closer look

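For 6 genes the joint loss of Hp1α and Hp1β departed from the sum of the single losses (edgeR's quasi-likelihood test, adjusted p under 0.05): Spry4 by −1.69 in log2, Etv4 by −1.14, Fgfr2 by −0.904, Dusp6 by −0.578, Etv5 by −0.286 and Spred1 by −0.227. Of all 16512 genes tested 45.0% passed as well. The departures of Spry4 and Etv4 are larger than the difference between the wild-type sets in the same genes (0.30 and 0.26).

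For 7 genes the response of Hp1α/β/γΔ/Δ cells against Hp1α/βΔ/Δ ESCs differed from that of Setdb1Δ/Δ cells against Setdb1F/F ESCs by the same test: Etv5 by −1.79 in log2, Spry4 by −1.62, Fgf4 by −1.48, Dusp6 by −0.812, Spry2 by −0.366, Spred1 by −0.226 and Etv4 by 0.636. Of all 18532 genes tested 64.2% passed as well. The 2 starting lines differ, with Spry2 at 292 ± 7.18 CPM in Setdb1F/F and 71.6 ± 4.83 CPM in Hp1α/βΔ/Δ ESCs (SD, n = 3 each), and line and treatment cannot be told apart in this test.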

How the results depend on the processing

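Of 184 recomputed counts of called members, 165 were within 1.5 times the reported count. Without the fold threshold the counts were 8 and 9 for Hp1α/β/γΔ/Δ cells against set A and Hp1α/βΔ/Δ ESCs, 9 for Setdb1Δ/Δ cells, 8, 6 and 8 for the α, β and γ single mutants, 6, 6 and 7 for the α/β, α/γ and β/γ double mutants and 4 between the wild-type sets. With a threshold of 1 on the log2 difference they were 2 for the joint loss of Hp1α and Hp1β and 3 for the difference from Setdb1Δ/Δ cells. With library sizes alone they were 3, 3 and 2 in the first 3 comparisons, and when every library had to hold at least 10 counts 3 against Hp1α/βΔ/Δ ESCs and 4 against set A. With the other wild-type set they were 0 in Hp1βΔ/Δ and 2 in Hp1β/γΔ/Δ ESCs. Leaving out each library gave 1 to 2 in Setdb1Δ/Δ cells (2 without the second Setdb1F/F library), 3 to 4 in Hp1α/γΔ/Δ ESCs and 7 to 8 for the difference from Setdb1Δ/Δ cells, and the reported count elsewhere.

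Of 1352 recomputed log2 fold changes whose reported value passed the adjusted p, 17 changed sign, as did 26 of 394 whose reported value did not. These 17 follow. With library sizes alone Fgfr1 turned against Hp1α/βΔ/Δ ESCs (0.0468), and Etv5 (0.0415), Fgfr1 (0.134) and Etv4 (0.0351) turned in Setdb1Δ/Δ cells. With set B as control Fgf4 (0.116) and Etv4 (−0.0852) turned in Hp1αΔ/Δ ESCs and Etv5 (0.0744) and Etv4 (−0.102) in Hp1α/βΔ/Δ ESCs. By the ratio of the authors' mean TPM Fgfr1 turned against set A (0.278), Hp1α/βΔ/Δ ESCs (0.396) and Setdb1F/F ESCs (0.482), Etv5 (0.276), Spred1 (0.0733), Dusp6 (0.15) and Etv4 (0.274) turned in Setdb1Δ/Δ cells, and Fgfr2 turned in Hp1αΔ/Δ (−0.48) and Hp1γΔ/Δ ESCs (−0.505). The cause was not tested.

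Same-numbered libraries did not deviate together (correlations from −0.0941 to 0.186, not above 0.1 for all 3 numbers in any comparison), so the numbers do not pair them, and the replicate block left every count of called members as reported, for example 5 against set A. At 1.35 to 4.07 CPM, depth limits what can be read from Fgfr2 in the Setdb1 conditions.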
